A study of Homo sapiens with 9 samples.

Results

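The genes described here code for the collagens, the laminins and a set of matrix glycoproteins, that is, for the main structural proteins of the extracellular matrix. They are the collagen chains (symbols of the form COL and A), the laminin chains, the nidogens, the fibrillins, the fibulins numbered under that name, and FN1, HSPG2, SPARC, TNC, VCAN, LUM, AGRN and PAPLN. In all, 72 of the 21417 gene symbols in the table were members, and where a symbol had several transcripts, the one with the highest mean stood for it. The data are RNA-seq of 9 libraries of H9, an established human embryonic stem cell line, so that every value comes from 1 line. Neuroectoderm, the precursor of the nervous system, was represented by 3 libraries taken at day 5 of culture with 200 nM of the BMP antagonist NOGGIN and 10 µM of SB431542, an inhibitor of the activin and Nodal receptors. Mesendoderm, the precursor of mesoderm and endoderm, was represented by 3 libraries at day 5 of culture with 5 ng/ml BMP4 in mTeSR1 medium. Undifferentiated cells (hESC) at day 0, kept on Matrigel in mTeSR1, gave the other 3 libraries.

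Collagens are trimers of 3 chains that form fibrils, networks or associated filaments, and laminins are trimers of an alpha, a beta and a gamma chain. Laminins and type IV collagen build separate networks in the basement membrane, the thin sheet under epithelia, where nidogens and the proteoglycans perlecan and agrin link them. Fibronectin, fibrillar collagens and tenascin belong to the looser interstitial matrix on which migrating and mesenchymal cells lie. Matrigel, the surface named for the undifferentiated cells, is itself a basement membrane extract rich in laminin and type IV collagen.

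The values are RPKM (reads per kilobase of transcript and per 10 to the sixth mapped reads), and whole-read steps in the low values gave denominators of 36.9 to 70.0 M reads per library. For a transcript of 1 kb, 3 reads then amount to 0.0429 to 0.0813 RPKM, a floor that covers counting error only. Defining markers were compared with the labels. PAX6 averaged 28.4 RPKM in neuroectoderm and 0.0233 RPKM in mesendoderm, and MIXL1 0.09 RPKM in neuroectoderm and 68.3 RPKM in mesendoderm. NANOG averaged 0.127 RPKM in neuroectoderm, 12.2 RPKM in mesendoderm and 22.0 RPKM in hESC. The 9 pluripotency markers summed to 377 to 392 RPKM in neuroectoderm, 436 to 518 in mesendoderm and 981 to 1040 in hESC. Some of them stayed near hESC, such as ZFP42 in mesendoderm (82.6 against 83.7 RPKM) and LIN28A in neuroectoderm (275 against 307 RPKM). The forebrain markers LHX2 and SIX3 were near 0 in neuroectoderm (0.123 and 0.0833 RPKM), and the endoderm markers SOX17 and FOXA2 were near 0 in mesendoderm (0.22 and 0.0367 RPKM). Of the same endoderm list, GATA6 and GATA4 averaged 4.82 and 3.72 RPKM in mesendoderm, against 0.0933 and 0.04 RPKM in hESC. FOXA2, AFP and APOA1 were lower in mesendoderm than in hESC. The 7 endoderm markers summed to 5.53 to 12.9 RPKM in mesendoderm and to 2.44 to 4.33 RPKM in hESC. The 6 matched trophoblast and amnion markers summed to 61.3 to 97.4 RPKM in mesendoderm, with CGA and GCM1 near 0 (0.0433 and 0.167 RPKM), and to 5.86 to 8.17 RPKM in hESC. The 6 fibroblast and mesenchyme markers summed to 90.96 to 114 RPKM in mesendoderm, against 54.4 to 94.5 RPKM in hESC. Most of the hESC sum was THY1, which averaged 44.1 RPKM in mesendoderm and 75.1 RPKM in hESC. POSTN averaged 46.0 RPKM in mesendoderm and 0.293 RPKM in hESC, PDGFRB 13.1 RPKM in mesendoderm and 3.17 RPKM in hESC, and TWIST1 1.5 RPKM in mesendoderm and 0.0333 RPKM in hESC. DCN stood at 0.4 RPKM in mesendoderm and 0.107 RPKM in hESC. The 5 endothelial markers summed to at most 1.87 RPKM in mesendoderm. The part of these markers in the changes of matrix genes in mesendoderm was not tested. In bulk RNA, fewer cells of a type and less RNA per cell cannot be told apart.

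Of the 72 members, 54 had a mean of at least 0.5 RPKM and entered the test as log2(RPKM + 1), on which low genes show smaller changes than on the RPKM scale. Of these, 12 had a mean under 0.5 RPKM in at least 1 group and passed through the level of another group, so their number among the calls is no support for any pattern. In each group 1 library stood apart: a gene's deviation from its group's mean decreased with its GC content in neuroectoderm replicate 1 (Spearman correlation across 13874 genes -0.563), hESC replicate 2 (-0.619) and mesendoderm replicate 1 (-0.29), and increased with it in the other 6 (0.195 to 0.587). The tested members had a median GC content of 55.8%, against 49.7% for all tested genes. Neuroectoderm replicate 1 was the lowest of its group for 37 of the 54 members and hESC replicate 2 for 34. Mesendoderm replicate 2 was the lowest of its group for 36. Its markers differed too, with NANOG at 18.4 RPKM, against 7.68 and 10.6 RPKM in mesendoderm replicates 1 and 3. HAND1 was lower there (41.9 against 85.3 and 79.1 RPKM) and MIXL1 higher (86.8 against 41.8 and 76.2 RPKM). The part of this in its matrix levels was not tested. Where leaving out the 3 libraries that stood apart by GC content turned the call of a member, the limma adjusted p without them is given.

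In neuroectoderm against hESC, 17 of the 54 tested matrix genes were higher and 21 lower at a limma adjusted p under 0.05, where 44.2% of all 14473 tested genes were called (21.9% higher and 22.3% lower). The groups did not overlap for 41 members, against 51.9% of all genes. In mesendoderm against hESC, 22 members were higher and 8 lower, where 35.1% of all genes were called (17.0% higher and 18.1% lower), and the groups did not overlap for 36 members, against 54.7% of all genes. The median change of the tested members was 0.08 on the log2 scale in neuroectoderm and 0.29 in mesendoderm, beside -0.02 for all tested genes in both comparisons. These 2 comparisons share the hESC libraries. Without the 3 libraries that stood apart, 20 members were higher and 21 lower in neuroectoderm, and 26 higher and 12 lower in mesendoderm. Calls over all 14473 tested genes rose as well, from 6393 to 8416 in neuroectoderm and from 5077 to 6811 in mesendoderm. The larger member counts are therefore no result about the members.

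**Figure D1:**
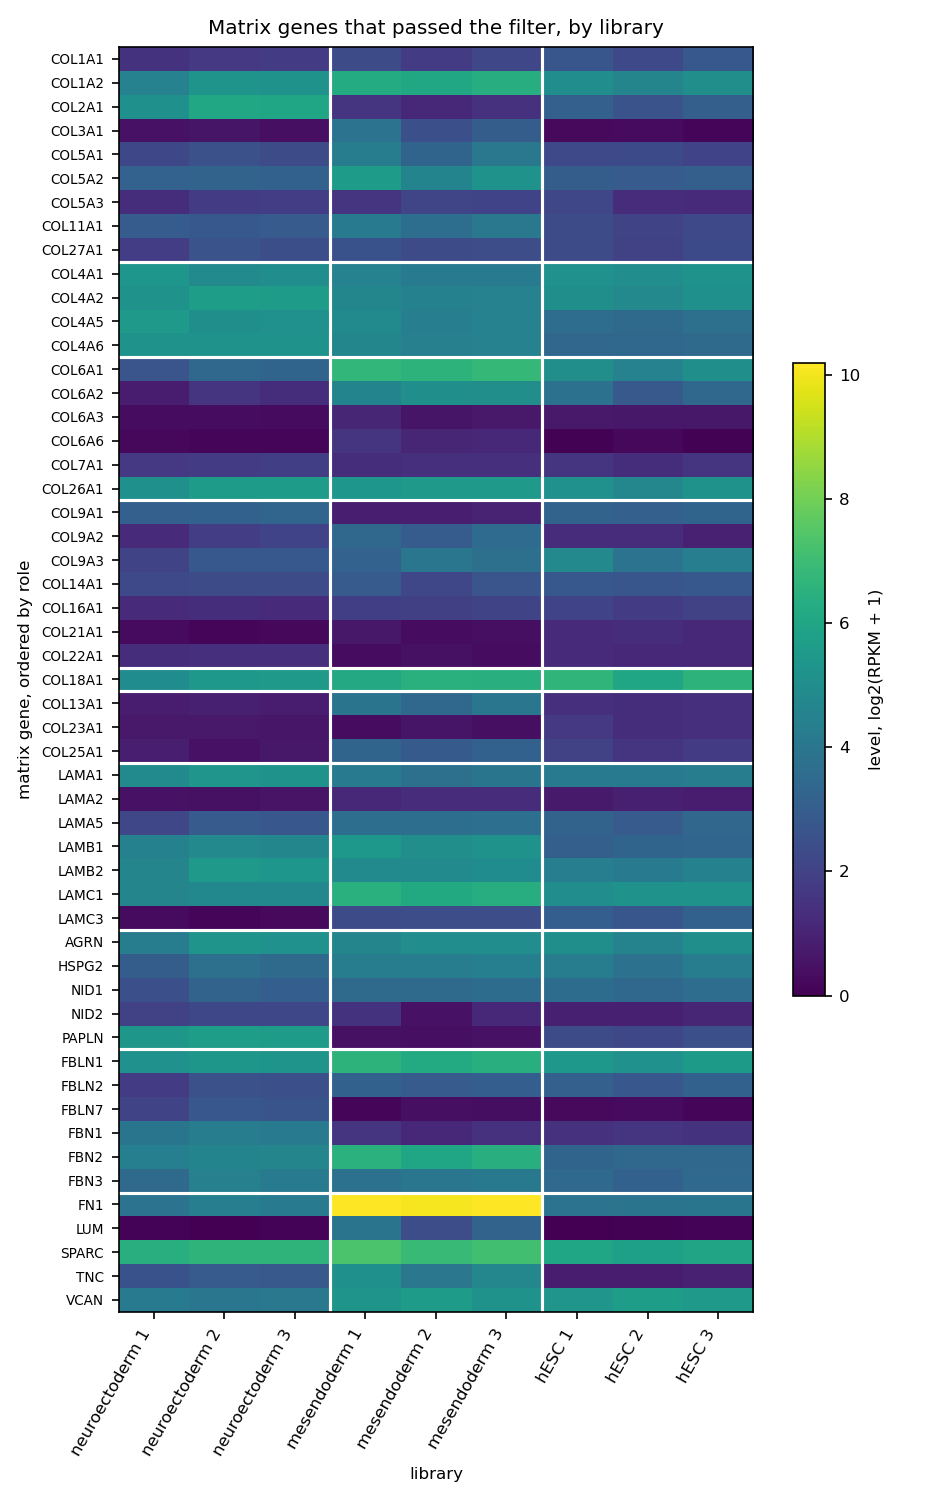
Levels of 53 of the 54 matrix genes that passed the filter, in log2(RPKM + 1) by colour, with genes in rows ordered by role and the 9 libraries in columns. FN1 in the 3 mesendoderm libraries is the brightest row, while PAPLN, COL2A1, FBN1 and FBLN7 are brighter in neuroectoderm than in the other groups.

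**Figure D2:**
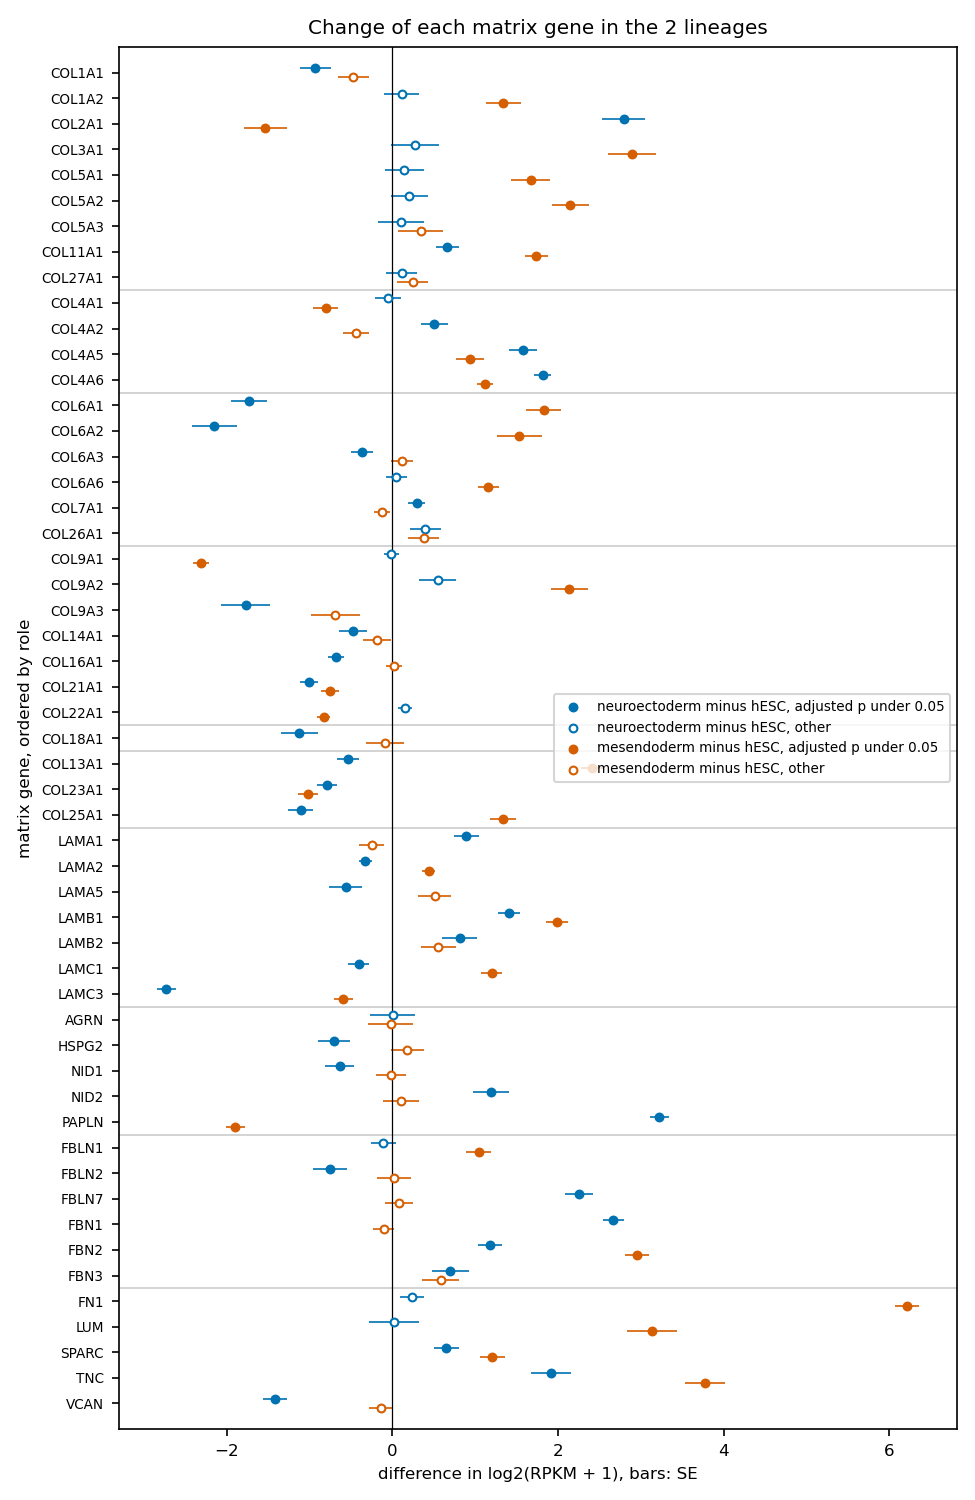
Difference in log2(RPKM + 1) of 53 of the 54 tested matrix genes for neuroectoderm minus hESC (blue) and mesendoderm minus hESC (orange), with bars of 1 SE and filled points for a limma adjusted p under 0.05. FN1 in mesendoderm lies farthest from 0 at 6.21, and PAPLN, COL2A1, COL6A1 and COL6A2 lie on opposite sides of 0 in the lineages.

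Among the interstitial glycoproteins, 4 of 5 rose in mesendoderm (80.0% called, beside 35.1% of all genes). FN1 codes for fibronectin, the glycoprotein that cells assemble into fibrils through integrins and that is needed for mesoderm migration in mouse embryos. FN1 had 1158, 1049 and 1163 RPKM in the mesendoderm libraries, against 13.8, 13.9 and 14.6 RPKM in the hESC libraries. The groups were far apart, with a ratio of means of 79.4 and a change of 6.21 ± 0.14 on the log2 scale (limma adjusted p = 2.81e-08). FN1 made up 47.4% to 49.1% of the summed RPKM of all members in mesendoderm, and 1.85% to 2.26% in hESC. The other 71 members together still summed to 1088 to 1283 RPKM in mesendoderm, against 602 to 741 RPKM in hESC. In neuroectoderm FN1 stood at 13.9, 19.3 and 17.8 RPKM and overlapped hESC (0.24 ± 0.14, limma adjusted p = 0.216). Without neuroectoderm replicate 1 that change was 0.37 with a limma adjusted p of 0.0207, and 0.0167 without all 3 libraries that stood apart.

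The 250 bases before the FN1 start are shown because FN1 had the largest change of the tested members in mesendoderm on the log2(RPKM + 1) scale. By ratio of means LUM differed more (208), a ratio that rests on the few reads of LUM in hESC. They come from RefSeq on GRCh38.p14 at chr2:215436069-215436318, minus strand, whereas the submitters' processing notes name hg19 for the reads. Capitals mark matches on either strand to the cyclic AMP response element TGACGTCA, to CCAAT and to the GC box GGGCGG.
FN1: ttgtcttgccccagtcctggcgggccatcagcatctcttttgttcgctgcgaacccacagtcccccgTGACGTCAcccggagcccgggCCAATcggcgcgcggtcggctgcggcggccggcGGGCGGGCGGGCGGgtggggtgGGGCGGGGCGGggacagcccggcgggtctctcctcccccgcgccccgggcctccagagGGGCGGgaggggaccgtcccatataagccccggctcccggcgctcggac
The stretch held 1 match to TGACGTCA, 1 to CCAAT and 6 to GGGCGG, some of the last overlapping each other. Over the same 250 bases of all 35116 RefSeq promoter windows, 1.65% held TGACGTCA, 32.0% held CCAAT and 42.6% held GGGCGG. Of the members, 55 had windows in the table, 70 windows in all, of which 1 held TGACGTCA, 21 CCAAT and 46 GGGCGG. A match is a description of the letters and not a site.

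TNC codes for tenascin C, an antiadhesive glycoprotein of migrating cells. It had 4.88, 6.57 and 6.09 RPKM in neuroectoderm and 33.9, 15.6 and 25.1 RPKM in mesendoderm, against 0.76, 0.73 and 0.93 RPKM in hESC. TNC thus rose in both lineages without overlap, by 1.92 ± 0.24 in neuroectoderm and 3.78 ± 0.24 in mesendoderm (limma adjusted p = 2.13e-04 and 5.24e-06). LUM codes for lumican, a small proteoglycan on collagen fibrils, and had 14.2, 4.31 and 8.59 RPKM in mesendoderm, against 0.02, 0.05 and 0.06 RPKM in hESC. The hESC values lie close to the floor of 3 reads (0.0142 to 0.027 RPKM for this transcript), and LUM rose in mesendoderm by 3.14 ± 0.31 (limma adjusted p = 6.78e-05), where mesendoderm replicate 2 had the lowest value. SPARC codes for osteonectin, a collagen-binding calcium protein, and was among the 5 most abundant members in every group. It stood at 83.2, 96.9 and 97.9 RPKM in neuroectoderm and at 157, 118 and 136 RPKM in mesendoderm, against 61.7, 53.4 and 60.4 RPKM in hESC. SPARC rose in neuroectoderm (0.65 ± 0.15) and in mesendoderm (1.21 ± 0.15), though with small RNA genes left out and the rest rescaled the call in neuroectoderm was lost (limma adjusted p = 0.0598). VCAN codes for versican, a large chondroitin sulfate proteoglycan. It fell in neuroectoderm to 16.7, 14.9 and 16.0 RPKM, against 38.6, 50.9 and 43.9 RPKM in hESC (-1.42 ± 0.15, limma adjusted p = 6.49e-05), and had 37.6, 47.4 and 36.6 RPKM in mesendoderm (-0.13 ± 0.15, limma adjusted p = 0.528).

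**Figure D3:**
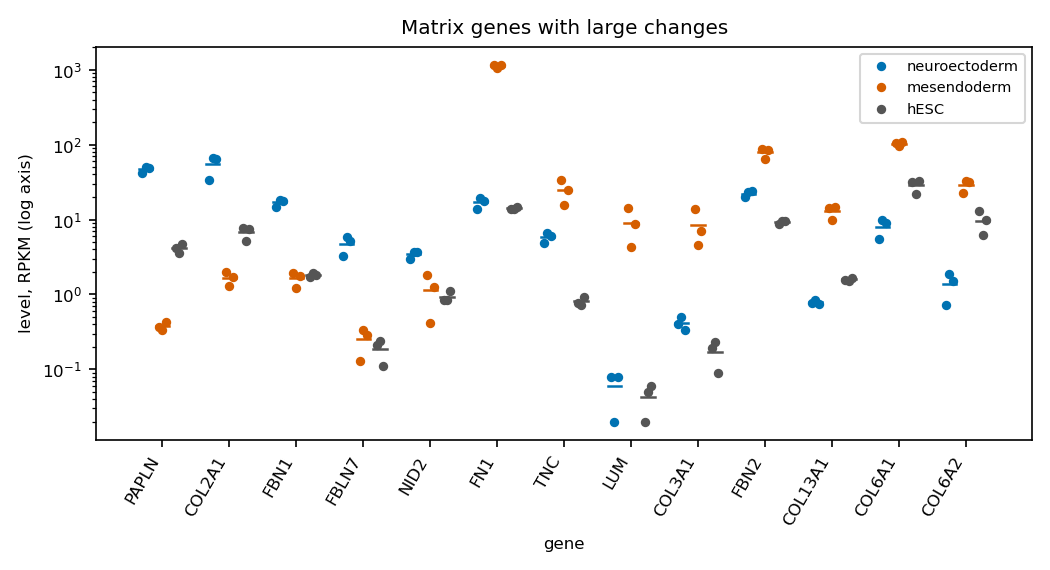
RPKM (log axis) of 13 matrix genes with large changes in the 3 neuroectoderm, 3 mesendoderm and 3 hESC libraries, with points for libraries and lines for group means. PAPLN, COL2A1, FBN1 and FBLN7 are highest in neuroectoderm, and FN1, TNC, LUM, COL3A1, FBN2, COL13A1, COL6A1 and COL6A2 are highest in mesendoderm, with no overlap between groups in these places.

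Fibrillins form the microfibrils of elastic tissue and hold latent growth factors, and fibulins bind them and the basement membrane. FBN1, the gene mutated in Marfan syndrome, had 14.7, 18.5 and 17.7 RPKM in neuroectoderm and 1.92, 1.23 and 1.77 RPKM in mesendoderm, against 1.71, 1.92 and 1.83 RPKM in hESC. FBN2, the fibrillin of early tissues, had 19.8, 23.1 and 23.9 RPKM in neuroectoderm and 88.6, 63.7 and 84.99 RPKM in mesendoderm, against 8.65, 9.6 and 9.52 RPKM in hESC. FBN1 therefore rose in neuroectoderm (2.67 ± 0.13, limma adjusted p = 7.01e-07) and overlapped hESC in mesendoderm, whereas FBN2 rose in both lineages (1.18 ± 0.15 and 2.95 ± 0.15). In the test of neuroectoderm against mesendoderm FBN1 was higher by 2.77 ± 0.13 and FBN2 lower by -1.77 ± 0.15 (limma adjusted p = 3.45e-07 and 1.29e-05). FBN3 had 10.6, 20.9 and 17.7 RPKM in neuroectoderm and 12.8, 14.98 and 16.1 RPKM in mesendoderm, against 10.2, 7.91 and 10.2 RPKM in hESC. Its rise in neuroectoderm (0.70 ± 0.22, limma adjusted p = 0.0315) was lost without hESC replicate 1, 2 or 3 or neuroectoderm replicate 2 or 3 (0.0595 to 0.0976). In mesendoderm FBN3 did not pass the test (0.59 ± 0.22, limma adjusted p = 0.0728), but did without neuroectoderm replicate 1 (0.00629) or 2 (0.0468) or the 3 libraries that stood apart (0.00362).

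FBLN7, a fibulin known from teeth and cartilage, had 3.22, 5.81 and 5.24 RPKM in neuroectoderm and 0.13, 0.34 and 0.29 RPKM in mesendoderm, against 0.21, 0.24 and 0.11 RPKM in hESC. It rose in neuroectoderm by 2.25 ± 0.17 (limma adjusted p = 1.07e-05) and overlapped hESC in mesendoderm. FBLN1, a fibulin of basement membranes and elastic fibres, rose in mesendoderm to 95.2, 74.2 and 85.2 RPKM, against 42.6, 34.3 and 45.4 RPKM in hESC (1.04 ± 0.15, limma adjusted p = 7.83e-04), and overlapped hESC in neuroectoderm. FBLN2 was lower in neuroectoderm (2.44, 4.82 and 4.58 RPKM against 7.71, 5.76 and 8.03 RPKM in hESC). That call was lost without hESC replicate 1 or 3 (limma adjusted p = 0.0575 and 0.0619). Of the 6 tested fibrillins and fibulins, 4 rose and 1 fell in neuroectoderm (83.3% called, beside 44.2% of all genes). In mesendoderm 2 rose (33.3%, beside 35.1%).

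The fibrillar collagens give tissues tensile strength. Of the 9 tested chains, 2 rose and 1 fell in neuroectoderm (33.3% called, beside 44.2% of all genes). In mesendoderm 5 rose and 1 fell (66.7%, beside 35.1%). COL2A1, the chain of type II collagen of cartilage, notochord and early neural epithelium, had 33.6, 65.8 and 63.8 RPKM in neuroectoderm and 2.0, 1.28 and 1.71 RPKM in mesendoderm, against 7.62, 5.12 and 7.49 RPKM in hESC. It rose in neuroectoderm (2.80 ± 0.26, limma adjusted p = 3.64e-05) and fell in mesendoderm (-1.53 ± 0.26, limma adjusted p = 0.00182), and neuroectoderm replicate 1 had the lowest of the neuroectoderm values. COL3A1, the type III chain of loose connective tissue, had 13.6, 4.57 and 7.07 RPKM in mesendoderm, against 0.19, 0.23 and 0.09 RPKM in hESC, a ratio of means of 49.5 (2.90 ± 0.29, limma adjusted p = 7.40e-05). The chains of type V collagen, which sets the width of fibrils, moved alike in mesendoderm. COL5A1 reached 18.3, 8.62 and 15.9 RPKM in mesendoderm, against 3.76, 3.91 and 3.19 RPKM in hESC (1.67 ± 0.23). COL5A2 reached 48.9, 23.4 and 36.3 RPKM in mesendoderm, against 7.13, 6.49 and 7.58 RPKM in hESC (2.15 ± 0.22). In both, mesendoderm replicate 2 was the lowest of its group and still above every hESC library. The third chain, COL5A3, overlapped between all groups. COL11A1, a chain of the type XI collagen that nucleates cartilage fibrils, rose to 6.76, 5.92 and 6.57 RPKM in neuroectoderm and to 16.7, 11.8 and 15.7 RPKM in mesendoderm, against 4.09, 3.26 and 3.7 RPKM in hESC (0.67 ± 0.14 and 1.74 ± 0.14).

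The genes of the 2 chains of type I collagen, which assembles from COL1A1 and COL1A2 products, moved differently. COL1A2 rose in mesendoderm to 76.2, 66.2 and 79.9 RPKM, against 31.2, 23.7 and 31.7 RPKM in hESC (1.34 ± 0.21, limma adjusted p = 0.00127). COL1A1 stood at 4.2, 2.51 and 3.5 RPKM in mesendoderm, against 5.62, 3.76 and 5.93 RPKM in hESC (-0.47 ± 0.19, limma adjusted p = 0.0814, 0.0271 without hESC replicate 2 and 0.00321 without the 3 libraries that stood apart). In neuroectoderm COL1A1 fell to 1.8, 2.25 and 2.47 RPKM (-0.93 ± 0.19, limma adjusted p = 0.00341), while COL1A2 with 22.2, 37.6 and 35.9 RPKM overlapped hESC (0.12 ± 0.21). In every library COL1A1 thus had the lower level per length.

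Type VI collagen forms beaded filaments at cell surfaces, from chains coded by COL6A1, COL6A2 and COL6A3. COL6A1 had 5.47, 9.73 and 8.86 RPKM in neuroectoderm and 105, 95.7 and 109 RPKM in mesendoderm, against 31.6, 22.1 and 32.5 RPKM in hESC. COL6A2 had 0.72, 1.9 and 1.51 RPKM in neuroectoderm and 22.9, 32.5 and 32.0 RPKM in mesendoderm, against 12.9, 6.25 and 9.88 RPKM in hESC. Both fell in neuroectoderm (-1.73 ± 0.22 and -2.15 ± 0.27) and rose in mesendoderm (1.83 ± 0.22 and 1.53 ± 0.27), with limma adjusted p of 2.41e-03 or lower in each case and no overlap between any of the groups. COL6A3 was far lower in each library, with 0.25, 0.25 and 0.22 RPKM in neuroectoderm and 1.16, 0.49 and 0.63 RPKM in mesendoderm, against 0.63, 0.58 and 0.59 RPKM in hESC. Its fall in neuroectoderm (-0.37 ± 0.13, limma adjusted p = 0.0485) was lost without any 1 of the hESC or neuroectoderm libraries or mesendoderm replicate 3 (0.0652 to 0.118), and in mesendoderm it overlapped hESC. COL6A6, a further type VI chain, rose in mesendoderm to 1.94, 1.14 and 1.21 RPKM, against 0.04, 0.15 and 0.05 RPKM in hESC (1.16 ± 0.13). COL7A1, the chain of the anchoring fibrils of skin, was between 1.53 and 2.71 RPKM in all libraries. Its rise in neuroectoderm (0.30 ± 0.10, limma adjusted p = 0.0391) was lost without any 1 library other than neuroectoderm replicate 1 (0.0513 to 0.132). COL26A1, with 33.5, 46.6 and 49.2 RPKM in neuroectoderm and 39.6, 43.1 and 43.3 RPKM in mesendoderm, against 35.1, 25.6 and 36.7 RPKM in hESC, passed the test in neither lineage (limma adjusted p = 0.114 and 0.147). Without neuroectoderm replicate 1 the first was 0.0151, and without the 3 libraries that stood apart they were 0.00441 and 0.0326.

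The fibril-associated collagens decorate fibrils made by other types. Type IX collagen, which coats the fibrils of cartilage, is built from COL9A1, COL9A2 and COL9A3 products, and each of its genes moved in its own way. COL9A1 had 7.78, 7.95 and 9.02 RPKM in neuroectoderm and 0.82, 0.82 and 1.01 RPKM in mesendoderm, against 8.5, 7.81 and 8.67 RPKM in hESC. COL9A2 had 1.37, 2.59 and 3.16 RPKM in neuroectoderm and 9.51, 6.85 and 10.7 RPKM in mesendoderm, against 1.43, 1.42 and 0.92 RPKM in hESC. COL9A3 had 3.24, 6.06 and 6.04 RPKM in neuroectoderm and 8.27, 14.8 and 12.7 RPKM in mesendoderm, against 26.7, 13.7 and 19.5 RPKM in hESC. COL9A1 fell in mesendoderm (-2.31 ± 0.09, limma adjusted p = 4.24e-07) while COL9A2 rose there (2.14 ± 0.23, limma adjusted p = 1.08e-04), and COL9A3 fell in neuroectoderm (-1.77 ± 0.30, limma adjusted p = 0.00129). COL9A2 in neuroectoderm did not pass the test (0.55 ± 0.23, limma adjusted p = 0.0780) but did without neuroectoderm replicate 1 (0.00701) or the 3 libraries that stood apart (0.0112). COL9A3 in mesendoderm did not pass it (-0.69 ± 0.30, limma adjusted p = 0.107) but did without those 3 (0.00794). COL16A1 fell in neuroectoderm (-0.68 ± 0.10), COL21A1 fell in both lineages (-1.01 ± 0.11 in neuroectoderm and -0.75 ± 0.11 in mesendoderm) and COL22A1 fell in mesendoderm (-0.83 ± 0.08). The fall of COL14A1 in neuroectoderm (limma adjusted p = 0.0494) was lost without any 1 of the hESC or neuroectoderm libraries or mesendoderm replicate 3 (0.0719 to 0.12).

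COL18A1, whose product is a basement membrane collagen with heparan sulfate chains and the source of endostatin, was the most abundant member in hESC. It fell in neuroectoderm to 29.9, 41.6 and 45.2 RPKM, against 101, 62.4 and 95.6 RPKM in hESC (-1.12 ± 0.23, limma adjusted p = 0.00357), and with 68.9, 86.3 and 84.1 RPKM in mesendoderm it overlapped hESC. All 3 tested transmembrane collagens, which are anchored in the cell membrane, fell in neuroectoderm, where 22.3% of all tested genes fell. COL13A1 had 0.77, 0.84 and 0.74 RPKM in neuroectoderm and 14.1, 9.84 and 14.8 RPKM in mesendoderm, against 1.58, 1.53 and 1.64 RPKM in hESC (-0.54 ± 0.14 and 2.41 ± 0.14, limma adjusted p = 0.0122 and 2.86e-06). COL25A1 went the same ways, with 0.79, 0.4 and 0.59 RPKM in neuroectoderm and 8.75, 6.36 and 8.0 RPKM in mesendoderm, against 2.94, 1.9 and 2.49 RPKM in hESC. COL23A1 was lower in both lineages (-0.79 ± 0.12 in neuroectoderm and -1.02 ± 0.12 in mesendoderm).

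Laminins are the first network of the basement membrane. Of the 8 tested laminin genes, 3 rose and 5 fell in neuroectoderm, where 44.2% of all tested genes were called. In mesendoderm 3 rose and 1 fell, where 35.1% of all tested genes were called. Without hESC replicate 3 or neuroectoderm replicate 3, 3 laminin genes fell in neuroectoderm. In those fits 5055 and 5317 of all tested genes were called, against 6393 with all libraries. Without neuroectoderm replicate 1, 5 laminin genes rose in mesendoderm, where 6696 of all tested genes were called, against 5077 with all libraries. LAMA1, the alpha chain of the first embryonic laminin, rose in neuroectoderm to 28.0, 38.4 and 36.3 RPKM, against 17.3, 17.7 and 18.5 RPKM in hESC (0.90 ± 0.15, limma adjusted p = 0.00148), and had 17.5, 12.6 and 14.7 RPKM in mesendoderm (-0.25 ± 0.15, limma adjusted p = 0.245, and 0.0192 without the 3 libraries that stood apart). LAMB1 had 21.4, 26.6 and 24.7 RPKM in neuroectoderm and 41.9, 31.7 and 36.6 RPKM in mesendoderm, against 7.56, 8.82 and 9.06 RPKM in hESC, a rise in both lineages (1.41 ± 0.14 and 1.99 ± 0.14). LAMC1, the common gamma chain, had 24.1, 26.1 and 26.3 RPKM in neuroectoderm and 88.0, 71.6 and 80.3 RPKM in mesendoderm, against 31.0, 36.5 and 35.1 RPKM in hESC. The rise of LAMC1 in mesendoderm (1.199 ± 0.124, limma adjusted p = 9.51e-05) held in all 17 settings, while its fall in neuroectoderm (-0.41 ± 0.12, limma adjusted p = 0.0253) was lost without hESC replicate 2 or 3 or neuroectoderm replicate 2 or 3 (0.0503 to 0.0856) and with a replicate block (0.0659). Another gamma chain gene, LAMC3, was low in neuroectoderm. LAMC3 had 0.22, 0.14 and 0.2 RPKM in neuroectoderm and 4.04, 4.27 and 4.36 RPKM in mesendoderm, against 7.26, 5.64 and 7.91 RPKM in hESC (-2.73 ± 0.11, limma adjusted p = 3.38e-07, and -0.59 ± 0.11).

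LAMA5, the alpha chain of the laminins of mature epithelia and of human pluripotent cells, had 3.44, 6.51 and 5.86 RPKM in neuroectoderm and 11.7, 11.7 and 12.2 RPKM in mesendoderm, against 8.37, 6.55 and 9.41 RPKM in hESC. Its fall in neuroectoderm (-0.56 ± 0.20, limma adjusted p = 0.0458) was lost without hESC replicate 1 or 3, neuroectoderm replicate 1 or 3 or any 1 mesendoderm library (0.0583 to 0.152) and with a replicate block (0.0646). In mesendoderm LAMA5 did not pass the test (0.51 ± 0.20, limma adjusted p = 0.0765) but did without neuroectoderm replicate 1 (0.00857) or the 3 libraries that stood apart (0.0125). LAMB2 rose in neuroectoderm to 23.5, 43.8 and 39.5 RPKM, against 19.4, 17.3 and 21.0 RPKM in hESC (0.81 ± 0.21, limma adjusted p = 0.0123). In mesendoderm it had 28.3, 27.7 and 30.1 RPKM (0.56 ± 0.21, limma adjusted p = 0.0691), a difference called without neuroectoderm replicate 1 (0.00203) or 2 (0.0482) or the 3 libraries that stood apart (0.00496). LAMA2, the alpha chain of muscle laminin, was low, with 0.4, 0.38 and 0.45 RPKM in neuroectoderm and 1.28, 1.45 and 1.44 RPKM in mesendoderm, against 0.67, 0.86 and 0.77 RPKM in hESC (-0.32 ± 0.08 and 0.44 ± 0.08). Its fall in neuroectoderm was lost without the 3 libraries that stood apart (limma adjusted p = 0.0508).

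**Figure D4:**
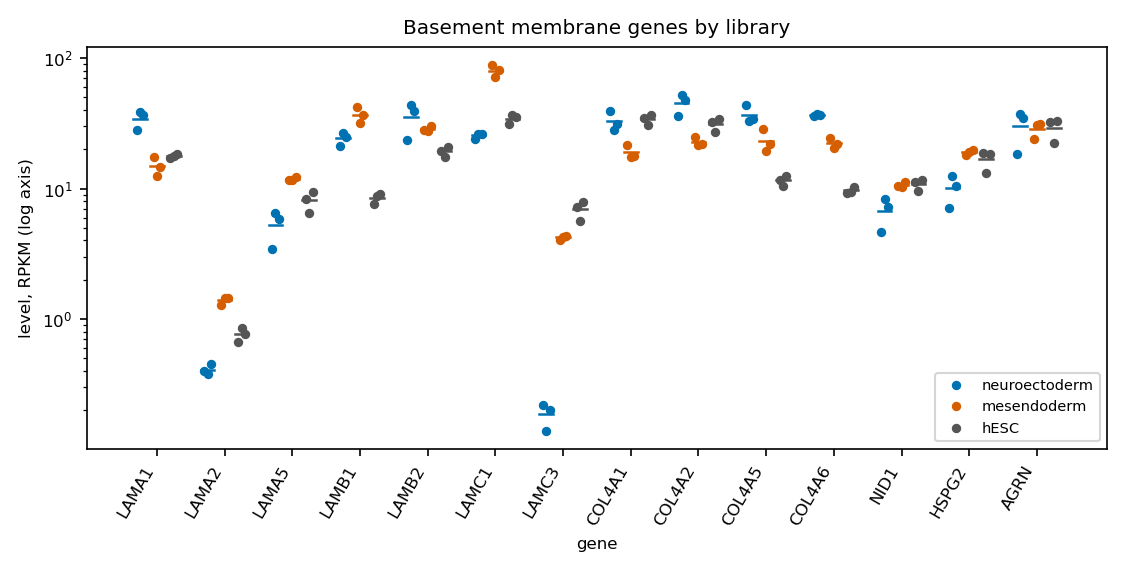
RPKM (log axis) of 14 basement membrane genes in the 3 neuroectoderm, 3 mesendoderm and 3 hESC libraries, with points for libraries and lines for group means. LAMC3 lies at 0.14 to 0.22 RPKM in neuroectoderm and at 4.04 RPKM or more in the other groups, and COL4A5 and COL4A6 lie above hESC in both lineages.

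Type IV collagen genes lie head to head in pairs that share the sequence between their starts. The pairs are COL4A1 with COL4A2, which make the widespread form, COL4A3 with COL4A4, and COL4A5 with COL4A6. COL4A5 had 43.5, 32.8 and 34.1 RPKM in neuroectoderm and 28.6, 19.3 and 21.9 RPKM in mesendoderm, against 11.6, 10.5 and 12.5 RPKM in hESC. COL4A6 had 36.0, 37.0 and 36.8 RPKM in neuroectoderm and 24.3, 20.5 and 21.9 RPKM in mesendoderm, against 9.29, 9.45 and 10.3 RPKM in hESC. The members of this pair rose by like amounts, COL4A5 by 1.58 ± 0.17 and COL4A6 by 1.82 ± 0.10 in neuroectoderm, and by 0.93 ± 0.17 and 1.12 ± 0.10 in mesendoderm (limma adjusted p at most 0.00251). COL4A1 had 39.5, 28.3 and 31.0 RPKM in neuroectoderm and 21.7, 17.5 and 17.8 RPKM in mesendoderm, against 34.7, 30.6 and 36.5 RPKM in hESC. COL4A2 had 36.0, 52.0 and 47.5 RPKM in neuroectoderm and 24.7, 21.4 and 22.1 RPKM in mesendoderm, against 32.6, 27.1 and 34.0 RPKM in hESC. COL4A1 fell in mesendoderm (-0.81 ± 0.15, limma adjusted p = 0.00346), and COL4A2 did not pass the test there (-0.44 ± 0.16, limma adjusted p = 0.0622), though it did without neuroectoderm replicate 1 (0.0127) or the 3 libraries that stood apart (0.00148). The rise of COL4A2 in neuroectoderm (0.51 ± 0.16, limma adjusted p = 0.0287) was lost without hESC replicate 1 or 2 or neuroectoderm replicate 2 or 3 (0.0575 to 0.0915), with a replicate block (0.0646) and with small RNA left out (0.120). COL4A1 in neuroectoderm overlapped hESC (-0.05 ± 0.15), and without the 3 libraries that stood apart had a limma adjusted p of 0.0327.

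The shared sequences of the expressed pairs are shown because 1 pair rose together in both lineages and the other did not. For COL4A1 and COL4A2 all 126 bases between the starts are given (chr13:110307158-110307283), and for COL4A5 and COL4A6 the 250 bases before the COL4A5 start out of 379 between the starts (chrX:108439588-108439837), both from RefSeq on GRCh38.p14, plus strand, with capitals as above. The COL4A6 start used was the listed one nearest to COL4A5. Starts, here and for FN1, were not matched to the transcripts whose levels are given, so other starts may apply to them.
COL4A1-COL4A2: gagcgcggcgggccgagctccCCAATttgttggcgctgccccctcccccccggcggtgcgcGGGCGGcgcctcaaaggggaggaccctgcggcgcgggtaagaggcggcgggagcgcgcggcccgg
COL4A5-COL4A6: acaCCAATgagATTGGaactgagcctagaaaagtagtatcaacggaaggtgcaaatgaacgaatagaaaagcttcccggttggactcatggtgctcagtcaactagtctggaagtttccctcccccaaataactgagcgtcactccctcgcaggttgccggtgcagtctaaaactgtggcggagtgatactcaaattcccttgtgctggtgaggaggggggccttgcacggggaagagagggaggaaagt
The first stretch, with 80.2% G and C, held 1 match to CCAAT and 1 to GGGCGG, motifs found in 21.1% and 34.6% of the 126 bases before all starts in the table. The second, with 51.2% G and C, held 2 matches to CCAAT, 1 on each strand, and 0 to GGGCGG. TGACGTCA was in neither.

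Of the 5 basement membrane linkers and relatives, 2 rose and 2 fell in neuroectoderm (80.0% called, beside 44.2% of all genes). In mesendoderm 1 fell (20.0%, beside 35.1%). NID1 codes for nidogen, which bridges laminin and type IV collagen. It had 4.61, 8.39 and 7.23 RPKM in neuroectoderm and 10.4, 10.4 and 11.1 RPKM in mesendoderm, against 11.2, 9.58 and 11.6 RPKM in hESC, while its relative NID2 had 3.0, 3.65 and 3.64 RPKM in neuroectoderm and 1.79, 0.42 and 1.27 RPKM in mesendoderm, against 0.85, 0.85 and 1.11 RPKM in hESC. In neuroectoderm NID1 fell (-0.64 ± 0.18, limma adjusted p = 0.0179, and 0.0575 and 0.0645 without hESC replicate 1 or 3) and NID2 rose (1.19 ± 0.22, limma adjusted p = 0.00201). HSPG2, which codes for perlecan, fell in neuroectoderm to 7.1, 12.55 and 10.54 RPKM, against 18.8, 13.3 and 18.4 RPKM in hESC (-0.70 ± 0.20, limma adjusted p = 0.0188, and 0.0692 without hESC replicate 1 or 3), and had 18.2, 18.9 and 19.9 RPKM in mesendoderm. AGRN, which codes for agrin, had 18.3, 37.3 and 34.9 RPKM in neuroectoderm and 23.9, 30.7 and 31.1 RPKM in mesendoderm, against 32.3, 22.3 and 32.8 RPKM in hESC. The AGRN groups overlapped (0.01 ± 0.27 in neuroectoderm and -0.02 ± 0.27 in mesendoderm). PAPLN codes for papilin, a basement membrane glycoprotein related to the ADAMTS proteases. It had 41.4, 50.6 and 48.9 RPKM in neuroectoderm and 0.37, 0.33 and 0.43 RPKM in mesendoderm, against 4.22, 3.56 and 4.66 RPKM in hESC. PAPLN thus rose in neuroectoderm by 3.22 ± 0.11 (limma adjusted p = 1.49e-07) and fell in mesendoderm by 1.90 ± 0.11 on the log2 scale (limma adjusted p = 3.88e-06), with ratios of means of 11.3 and 0.0908.

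Ratios of levels per length between chains of 1 protein, or between related genes such as alternative laminin chains and fibrillins, were taken within each library and do not depend on library size. COL1A1 over COL1A2 was 0.0598 to 0.0811 in neuroectoderm and 0.0379 to 0.0551 in mesendoderm, against 0.159 to 0.187 in hESC, although type I collagen takes more COL1A1 than COL1A2 chains. COL6A3 over COL6A1 was 0.0248 to 0.0457 in neuroectoderm and 0.00512 to 0.0111 in mesendoderm, against 0.0182 to 0.0263 in hESC. LAMA1 over LAMA5 was 5.9 to 8.14 in neuroectoderm and 1.07 to 1.5 in mesendoderm, against 1.96 to 2.69 in hESC, with no overlap between groups. LAMB1 over LAMB2 was 0.607 to 0.908 in neuroectoderm and 1.15 to 1.48 in mesendoderm, against 0.39 to 0.509 in hESC. FBN1 over FBN2 was 0.74 to 0.802 in neuroectoderm and 0.0193 to 0.0217 in mesendoderm, against 0.192 to 0.2 in hESC. The ratios of the type IV pairs lay between 0.544 and 1.13 in every library. COL4A6 over COL4A5 was 0.827 to 1.13 in neuroectoderm and 0.851 to 1.07 in mesendoderm, against 0.799 to 0.897 in hESC. COL4A1 over COL4A2 was 1.1 in neuroectoderm replicate 1 and 0.544 and 0.653 in the other neuroectoderm libraries, 0.808 to 0.879 in mesendoderm and 1.07 to 1.13 in hESC. Reads may be spread unevenly along a transcript or differ with GC content, which RPKM values do not show, and these ratios were not tested.

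**Figure D5:**
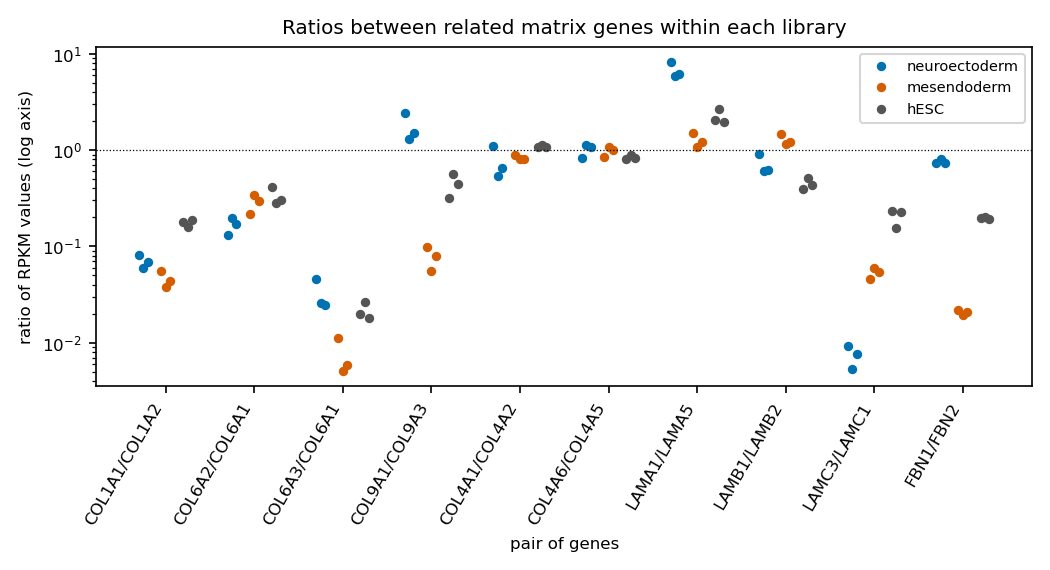
Ratio of the RPKM values of 10 pairs of matrix genes within each library (log axis), for the 3 neuroectoderm, 3 mesendoderm and 3 hESC libraries, with a dotted line at 1. COL1A1 over COL1A2, COL6A3 over COL6A1 and LAMC3 over LAMC1 lie under 1 in every library, and FBN1 over FBN2 separates the groups.

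Neuroectoderm and mesendoderm were also compared directly. Of the 54 tested members 13 were higher and 31 lower in neuroectoderm, where 48.1% of all genes were called (24.0% higher and 24.1% lower), and the groups did not overlap for 47 members, against 57.2% of all genes. The median difference was -0.66, beside -0.01 for all genes. The largest differences were those of PAPLN (5.12 ± 0.11), COL2A1 (4.33 ± 0.26), FBN1 (2.77 ± 0.13), COL9A1 (2.30 ± 0.09), LAMA1 (1.15 ± 0.15) and COL4A2 (0.95 ± 0.16) among the higher genes with at least 5 RPKM. On the lower side FN1 (-5.98 ± 0.14), COL6A2 (-3.68 ± 0.27), COL6A1 (-3.56 ± 0.22), LUM (-3.12 ± 0.31), COL13A1 (-2.95 ± 0.14) and COL3A1 (-2.62 ± 0.29) led. All 4 tested type IV chains were higher in neuroectoderm, and all 5 interstitial glycoproteins were lower. The calls of COL9A3 (limma adjusted p = 0.0584 and 0.0522 without mesendoderm replicate 2 or 3), NID1 (0.0622 without mesendoderm replicate 3) and SPARC (0.0554 without mesendoderm replicate 1, 0.0520 with small RNA left out) were lost in those settings. Without the 3 libraries that stood apart AGRN, FBN3 and LAMB2, which did not pass the test with all libraries, were higher in neuroectoderm (limma adjusted p = 0.0463, 0.0385 and 0.00297). LAMB2 was so also without neuroectoderm replicate 1 alone (0.00417).

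The 18 members with a mean under 0.5 RPKM were not tested. They are COL4A3, COL4A4, COL6A5, COL8A1, COL8A2, COL10A1, COL12A1, COL15A1, COL17A1, COL19A1, COL20A1, COL24A1, COL28A1, FBLN5, LAMA3, LAMA4, LAMB3 and LAMB4. In 5 of them at least 1 group averaged 0.5 RPKM or more. COL8A2, a chain of the network under corneal endothelium, had 0.02, 0.05 and 0.04 RPKM in neuroectoderm and 0.12, 0.26 and 0.07 RPKM in mesendoderm, against 1.08, 0.71 and 1.13 RPKM in hESC. COL15A1, a relative of COL18A1, had 0.57, 0.71 and 0.61 RPKM in neuroectoderm and 0.07, 0.03 and 0.08 RPKM in mesendoderm, against 0.15, 0.22 and 0.15 RPKM in hESC. LAMB3, a beta chain of epithelial laminin, had 0.13, 0.2 and 0.13 RPKM in neuroectoderm and 0.89, 0.69 and 0.8 RPKM in mesendoderm, against 0.35, 0.33 and 0.29 RPKM in hESC. The groups did not overlap in any of these 3 genes, while in the other 2 a pair of groups did. LAMA4, an alpha chain of vessel laminins, had 0.39, 0.21 and 0.25 RPKM in neuroectoderm and 0.72, 0.87 and 0.57 RPKM in mesendoderm, against 0.11, 0.29 and 0.24 RPKM in hESC. COL17A1, a transmembrane collagen of hemidesmosomes, had 0.25, 0.4 and 0.32 RPKM in neuroectoderm and 0.33, 0.46 and 0.43 RPKM in mesendoderm, against 0.57, 0.55 and 0.61 RPKM in hESC. LAMA3 stood at 0.3 RPKM or less in every library. The third type IV pair was as low, with at most 0.22 RPKM for COL4A3 and 0.35 RPKM for COL4A4, both in neuroectoderm.

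Genes that modify and secrete collagen were followed as a separate list. Of 23 tested, 2 rose and 7 fell in neuroectoderm, and 9 rose in mesendoderm, with medians of -0.06 and 0.40. The share called was 39.1% in both comparisons, beside 44.2% of all genes in neuroectoderm and 35.1% in mesendoderm. Without neuroectoderm replicate 1, 6 rose in neuroectoderm and 14 in mesendoderm. In that fit 7418 and 6696 of all tested genes were called, against 6393 and 5077 with all libraries. PLOD2, the lysyl hydroxylase of collagen telopeptides, had 1.26, 0.68 and 0.83 RPKM in neuroectoderm and 21.4, 12.6 and 16.1 RPKM in mesendoderm, against 2.02, 3.15 and 2.59 RPKM in hESC (-0.90 ± 0.20 and 2.28 ± 0.20). LEPREL1, a prolyl 3-hydroxylase, went the same ways with 5.64, 6.06 and 5.53 RPKM in neuroectoderm and 38.2, 22.4 and 32.6 RPKM in mesendoderm, against 12.1, 12.7 and 14.8 RPKM in hESC. The prolyl 4-hydroxylase subunit P4HA2 fell in neuroectoderm (-0.60 ± 0.13) and rose in mesendoderm (1.25 ± 0.13), and PPIB, the prolyl isomerase that helps collagen fold, fell in neuroectoderm (-1.59 ± 0.24). COLGALT2, a collagen galactosyltransferase, rose to 3.3, 3.46 and 3.68 RPKM in neuroectoderm, against 0.38, 0.53 and 0.56 RPKM in hESC (1.59 ± 0.09).

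Of 11 tested genes for cross-linking and propeptide removal, 2 rose and 2 fell in neuroectoderm (36.4% called, beside 44.2% of all genes) and 3 rose in mesendoderm (27.3%, beside 35.1%). Without neuroectoderm replicate 1, 6 rose in neuroectoderm, where 7418 of all tested genes were called, against 6393 with all libraries. BMP1, the procollagen C-proteinase, and the lysyl oxidase LOXL1 rose in neuroectoderm (0.79 ± 0.16 and 0.75 ± 0.17), and the proprotein convertase FURIN rose in mesendoderm to 41.2, 37.1 and 44.6 RPKM, against 7.77, 5.6 and 7.55 RPKM in hESC (2.40 ± 0.25). Of 17 tested genes for breakdown and its inhibitors, 2 rose and 6 fell in neuroectoderm (47.1% called, beside 44.2% of all genes) and 8 rose and 5 fell in mesendoderm (76.5%, beside 35.1%). Without neuroectoderm replicate 1, 4 rose in neuroectoderm, beside the same 7418 called genes. The falls in mesendoderm numbered 2 without mesendoderm replicate 3, and 3 without hESC replicate 1 or 3, mesendoderm replicate 1 or neuroectoderm replicate 3. In those fits 3640 to 4634 of all tested genes were called, against 5077 with all libraries. MMP2, a gelatinase, fell in neuroectoderm to 6.52, 10.4 and 9.92 RPKM and rose in mesendoderm to 53.9, 39.6 and 45.9 RPKM, against 14.6, 13.1 and 15.6 RPKM in hESC. MMP2 in neuroectoderm changed by -0.66 ± 0.18, a call lost in 2 of 17 settings, and in mesendoderm by 1.61 ± 0.18. MMP14, the membrane protease that activates MMP2, rose in mesendoderm (1.53 ± 0.20), and the versican-cleaving ADAMTS9 rose in both lineages (1.81 ± 0.26 in neuroectoderm and 2.62 ± 0.26 in mesendoderm). TIMP3, an inhibitor bound to the matrix, rose in neuroectoderm (1.31 ± 0.10) and in mesendoderm (0.43 ± 0.10, a call lost in 1 setting).

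Of 21 tested matrix receptors, 4 rose and 10 fell in neuroectoderm and 10 rose and 4 fell in mesendoderm (66.7% called in both, beside 44.2% and 35.1% of all genes). ITGA5, whose product binds fibronectin together with that of ITGB1, had 27.8, 43.4 and 42.4 RPKM in neuroectoderm and 68.0, 26.4 and 55.1 RPKM in mesendoderm, against 8.6, 6.45 and 8.27 RPKM in hESC (2.13 ± 0.33 and 2.44 ± 0.33). ITGA6, a laminin receptor, fell to 12.7, 16.1 and 16.4 RPKM in neuroectoderm and to 8.49, 13.9 and 9.87 RPKM in mesendoderm, against 35.1, 38.7 and 37.6 RPKM in hESC (-1.26 ± 0.17 and -1.72 ± 0.17). ITGB5 had 18.2, 19.1 and 20.0 RPKM in neuroectoderm and 116, 140 and 124 RPKM in mesendoderm, against 61.7, 58.9 and 68.5 RPKM in hESC (-1.67 ± 0.13 and 0.995 ± 0.125). The syndecan SDC4, a co-receptor for fibronectin, and the laminin receptor BCAM fell in neuroectoderm (-1.05 ± 0.14 and -1.45 ± 0.22), SDC4 rose in mesendoderm (1.38 ± 0.14), and SDC2 rose in both lineages (1.59 ± 0.14 in neuroectoderm and 1.18 ± 0.14 in mesendoderm).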

How the data were processed

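The deposited values are RPKM that the authors computed per RefSeq transcript, 38759 in 1 table, rounded to 2 decimals. The submitters' processing notes list TopHat, TopHat2 2.0.13, Bowtie2 and hg19. For the counting tool and its use of strand, nothing is given in the sources used here. Of the members, 25 have several transcript rows, which share reads, and 2 (COL18A1 and COL4A2) have antisense genes in the table, all under 0.12 RPKM. Values were analysed as log2(RPKM + 1) in 1 linear model over 9 libraries with limma 3.58.1 (R 4.3.3, mean-variance trend) keeping genes that averaged 0.5 RPKM or more, with Benjamini-Hochberg adjustment over all 14473 genes and a threshold of 0.05. Changes are log2 differences ± SE over 3 libraries per group. No label says that replicates were separate cultures. The p-values therefore rest on the spread between libraries, which may be technical. Replicates differed by more than sampling noise (chi-square per gene 25.4 to 371). Depth was read from whole-read steps, within 0.1 of a read for 92.9% to 97.3% of 161 to 233 low values per library. Same-numbered neuroectoderm and mesendoderm libraries deviated together (correlations across genes 0.392, 0.247 and 0.229). Replicate 1 is also the library whose deviations decreased with GC content in both groups, and libraries of different numbers were not compared. The labels give no pairs, and whether the numbers pair these groups was not tested. Members, lists and alternatives were chosen with earlier results of these data known. Of the tested members, 1 is counted but not reported here by itself. Values in every library are given for the other tested laminin, type IV and linker genes, for the 5 most abundant members per group, and for up to 6 rises and 6 falls per comparison among called members without overlap and at least 5 RPKM. The others shown were chosen after their values were seen. Genes of the further lists come from the 4 largest calls per list and comparison.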

Additional observations from a re-analysis of the deposited data

Results flagged for a closer look

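For 8 members the changes against hESC were called in opposite directions in the lineages. The difference between neuroectoderm and mesendoderm was called by limma too, which adds little because it combines the opposite changes. PAPLN (neuroectoderm minus mesendoderm 5.12 on the log2 scale) and COL2A1 (4.33) were higher than hESC in neuroectoderm and lower in mesendoderm. COL6A2 (-3.68), COL6A1 (-3.56), COL13A1 (-2.95), COL25A1 (-2.45), LAMC1 (-1.61) and LAMA2 (-0.76) were lower than hESC in neuroectoderm and higher in mesendoderm. Among all 14473 tested genes 382 had the first pattern and 501 the second, counted from the calls against hESC alone. For LAMC1 and LAMA2 the fall in neuroectoderm was lost in 6 and 1 of 17 settings, while the difference between the lineages was called in each.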

How the results depend on the processing

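The alternatives changed the pseudocount, the filter, the scaling, the transcript rows, the block, the groups in the fit and the libraries, 17 settings in all. The count of members called stayed within 1.5 times of the reported count in each. Leaving out 1 library gave 14 to 20 higher and 14 to 20 lower members in neuroectoderm against hESC (17 and 21 with all libraries), 22 to 25 and 8 to 9 in mesendoderm against hESC (22 and 8), and 13 to 14 and 29 to 33 in neuroectoderm against mesendoderm (13 and 31). Calls over all genes then numbered 5055 to 7418, 3640 to 6696 and 5562 to 7498 (6393, 5077 and 6965 with all libraries). Of the called members, 26 of 38, 30 of 30 and 41 of 44 were called in each setting. No called member changed sign. With a replicate block 15 members were higher and 17 lower in neuroectoderm against hESC, and the counts of the other comparisons were as reported. Between neuroectoderm and mesendoderm the block changed no call of a member. Against hESC, deviations of same-numbered libraries correlated at -0.616, -0.738 and 0.401 for neuroectoderm and -0.485, -0.295 and 0.058 for mesendoderm, so those numbers were not read as pairs. Leaving out small RNA moved the median of all genes against hESC to -0.124 in both lineages, with 14 members higher and 20 lower in neuroectoderm and 22 and 11 in mesendoderm. Calls over all genes left numbered 5590 in neuroectoderm and 4507 in mesendoderm. At the lowest depth, 36.9 M reads, 0.1 RPKM of FN1 is 29.3 reads and of FBLN7 5.14 reads, so low levels of short transcripts rest on few reads.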
